A study of Homo sapiens with 36 samples.

Results

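The regions described here are short stretches of the genome of K562 cells, a human leukaemia cell line, that lay inside macroH2A islands in every one of 8 deposited lists, 4 for macroH2A1 and 4 for its splice form macroH2A1.2, made from untreated cells and from cells given aphidicolin. An island is a stretch that the authors' caller marked as enriched in sequencing reads after chromatin immunoprecipitation. On a grid of 200 bp over chromosomes 1 to 22 and X of build hg19, the bases shared by all 8 lists formed 25672 runs that held 110 Mb, or 3.63% of the 3035 Mb span. Of these runs, 14456 were 1 to 5 kb long and more than 50 kb from any run of at least 20 kb, and these are the short constitutive regions. They held 37.8 Mb, which was 34.4% of the shared length and 1.25% of the span. The remaining runs were 1412 of the same length but within 50 kb of a long run, 5717 of medium length (over 5 and under 20 kb), 484 long ones (at least 20 kb) and 3603 under 1 kb.

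MacroH2A1 is a variant of histone H2A that carries a large globular macro domain, and it is best known from transcriptionally quiet chromatin and from the inactive X chromosome. Its gene gives the splice forms macroH2A1.1 and macroH2A1.2, which differ in the pocket of the macro domain. γH2AX is histone H2AX phosphorylated by DNA damage kinases around breaks and stalled replication forks. Aphidicolin inhibits the replicative DNA polymerases, and at low doses it slows forks and brings out breaks at common fragile sites.

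Chromatin was crosslinked with formaldehyde, cut with micrococcal nuclease and briefly sonicated before immunoprecipitation. The sample titles fall into 4 sets. Set 1 holds macroH2A1 and γH2AX from 2 untreated and 2 aphidicolin K562 samples (the titles of the latter carry the number 0.5, with no unit), and set 2 holds macroH2A1.2 and γH2AX from 2 untreated and 2 aphidicolin K562 samples. Set 3 holds γH2AX from 1 untreated and 1 aphidicolin sample each of K562 and of a line labelled 2A3, and set 4 holds macroH2A1.2 from untreated K562 with the hairpins sh-RFP or sh-mH1.2, 1 sample each. The labels do not say whether samples of a group came from separate cultures, so p-values measure the spread between these samples only, and all K562 values come from 1 line. Reads inside islands ranged from 9641246 to 48662391 in the 8 macroH2A lists and from 2405707 to 26508284 in the 10 K562 γH2AX lists, whose islands covered 1.27 to 7.75% of the span. The sequencing depth of the libraries is unknown, since the lists hold only islands. Every macroH2A value of the 8 lists at these regions follows from how the regions were chosen and is given as a description with no test.

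The regions had a median length of 2.4 kb, with quartiles of 1.8 and 3.4 kb, and a mean of 2.62 kb. The most frequent length was 2 kb, with 1004 regions, and 861 were at the lower limit of 1 kb and 282 at the upper limit of 5 kb. The 5 longest by chromosome order, all 5 kb, included chr1:3030601-3035600, which lay in a macroH2A island of 169 kb in 1 of the lists, and chr1:12105001-12110000, whose broadest island was 15.8 kb.

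Most short regions had another shared run close by. The gap to the nearest other shared run of at least 1 kb had a median of 2.4 kb (quartiles 1.0 and 11 kb), and it was under 5 kb for 9123 regions (63.1%) and over 100 kb for 948 (6.56%). Joined over gaps of up to 10 kb, shared runs made 7259 chains with at least 1 short region. Of these, 3797 were a single short region, and 584 held 5 or more short regions and together 4214 of them. The chain with most of them, 27, was at chr21:47322201-47515000, and the next, with 26, was at chr1:25243201-25477600. The most isolated region was chr13:75150601-75153000, with a gap of 22200 kb, and it lay in no K562 γH2AX list and in no hairpin island. The next most isolated, chr2:149302801-149304200, had a gap of 9976 kb and was likewise in none of those lists.

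Density differed by chromosome. Chromosome 19 held 12.8 regions per Mb, chromosome 17 held 11.9 and chromosome 1 held 8.79, against 4.76 over all chromosomes. The lowest densities were 0.425 on X, 0.704 on chromosome 13 and 1.31 on chromosome 14. Across the 23 chromosomes the density followed that of protein-coding genes in RefSeq (counts on GRCh38, used here for gene numbers only), with Pearson's r of 0.84 and Spearman's rho of 0.78. This is a description over chromosomes, which share the same 8 libraries and differ in base composition. Copy number in K562 was not measured here, since the 14 input libraries were not analysed. Its part in these densities and in γH2AX shares by chromosome was not tested. In 1-Mb bins, 1461 of 3050 (47.9%) held no region, and 226 bins with 20 or more held 6226 of them (43.1%). The last 2 Mb before each chromosome's last island end held 12.2 regions per Mb, against 4.65 elsewhere, which includes the low-coordinate ends.

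**Figure D1:**
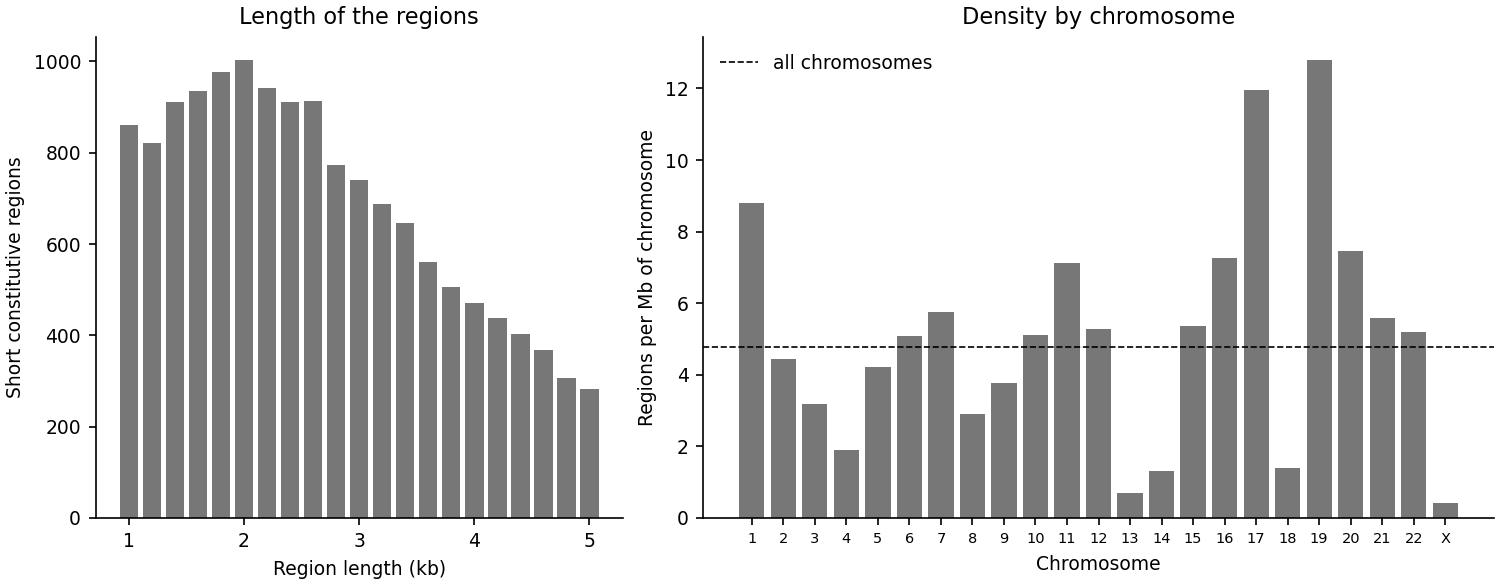
Number of short constitutive regions by length in kb (left) and regions per Mb of each chromosome (right), with the density over all chromosomes as a dashed line. The middle 50% of regions are between 1.8 and 3.4 kb, and chromosomes 19, 17 and 1 stand highest at 12.8, 11.9 and 8.79 per Mb.

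The islands behind the regions were mostly broader than the regions. In the untreated macroH2A1.2 list of replicate 3, the list with the smallest covered length of the 8, the island that held a region had a median length of 7.2 kb. In both aphidicolin macroH2A1 lists, which covered most, the medians were 18.2 and 17.6 kb. Only 87 regions (0.602%) lay in islands of 5 kb or less in all 8 lists and 1290 (8.92%) in islands of 10 kb or less in all 8, while 9862 (68.2%) lay in an island of 20 kb or more in at least 1 list. The word short therefore describes the stretch that all 8 lists shared and not the island that held it.

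Which list set the edge of a region varied. Of the 28912 edges, 23931 (82.8%) were the end of an island in 1 list alone and 0.100% were ends in all 8. The untreated macroH2A1.2 list of replicate 3 ended 24.3% of the edges and the aphidicolin macroH2A1 list of replicate 1 ended 6.89%. The smallest of the 8 islands was equal to the region itself in 3304 cases (22.9%).

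Reads per kb of the holding islands were close to the average of each list. The median ratio to the list's mean reads per kb lay between 0.865 (macroH2A1.2, untreated, replicate 3) and 1.00 (macroH2A1, aphidicolin, replicate 1). The highest values, as the mean over the 8 lists, were 9.27-fold at chr18:96801-100600, 6.75-fold at chr10:135499201-135503000, 6.24-fold at chr18:94001-95000 and 3.57-fold at chr12:132060601-132063200, and the fifth was 2.53-fold at chr3:195211001-195214600.

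Moving out from the centres, macroH2A coverage fell but stayed above the span average. At 20 kb from the centre, 43.0 to 66.0% of the positions were still inside an island in the 8 lists, where islands covered 7.96 to 14.4% of the span. By contrast, γH2AX was nearly flat over the same distance. In the aphidicolin list of set 1 replicate 2, for instance, 36.2% of centres and 31.5% of positions at 20 kb were in γH2AX islands. Over the 10 K562 γH2AX lists, the ratio of centre to 20 kb was 1.11 to 1.33.

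**Figure D2:**
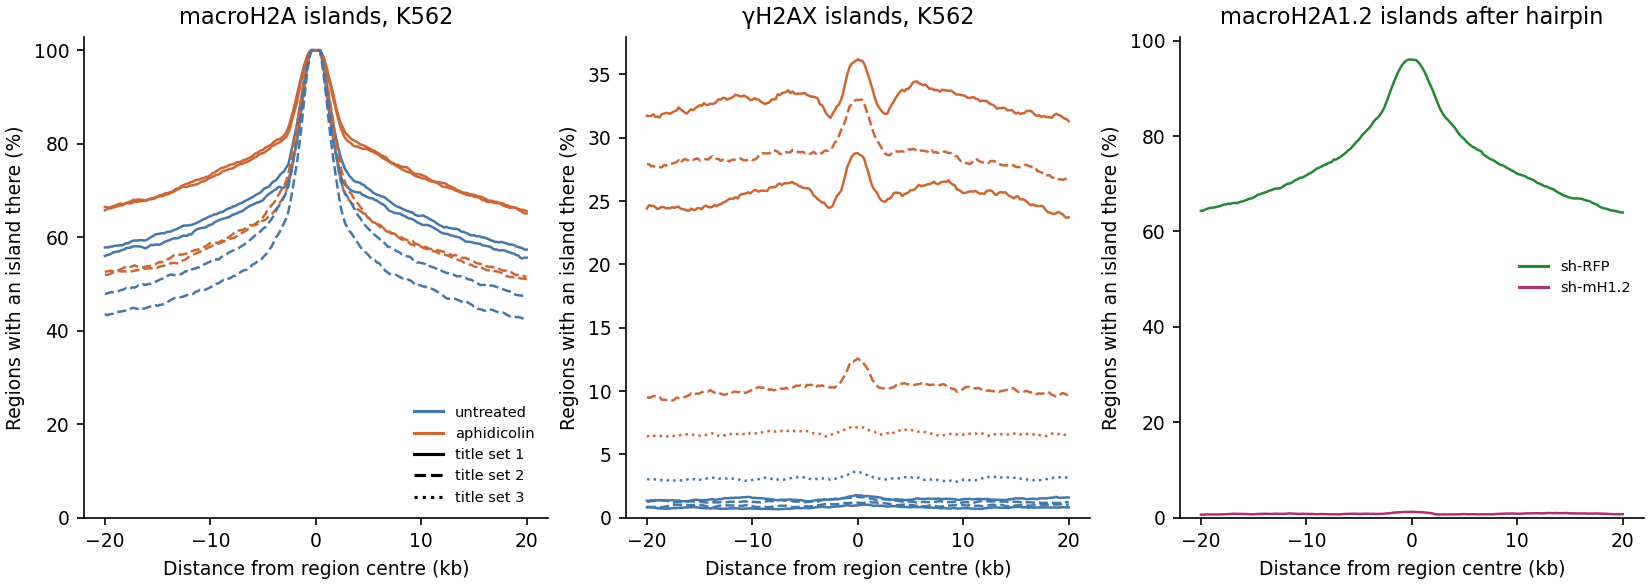
Share of the 14456 regions with an island at each distance in kb from the region centre, for the 8 macroH2A lists (left), the 10 K562 γH2AX lists (middle) and both hairpin lists (right), 1 line per list. The macroH2A lines reach 100% at the centre by the rule, γH2AX lines have a low peak at the centre, and the sh-mH1.2 line lies near 0 beside the sh-RFP line.

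The first comparison asked how much of the regions carried γH2AX without and with aphidicolin, which the rule did not use. In bulk chromatin, more cells with γH2AX and more γH2AX per cell cannot be told apart. In untreated K562 the share of their length inside γH2AX islands was 1.74 and 1.01% in set 1, 1.12 and 1.60% in set 2, and 3.58% in set 3. With aphidicolin it was 29.7 and 37.5% in set 1, 33.1 and 12.2% in set 2, and 7.33% in set 3. All 5 aphidicolin libraries lay above all 5 untreated ones. The means were 23.9% ± 13.3 (SD, n = 5) and 1.81% ± 1.04 (SD, n = 5). The difference of 22.1 percentage points had p = 0.0278 in the two-sided exact permutation test that exchanged treatment within title sets, which is the smallest p its 72 assignments can give. Without untreated set 2 replicate 1, untreated set 2 replicate 3 or the untreated library of set 3, p was 0.0556 (exact permutation test) at 22 to 22.6 points. The difference was 32.2 points within set 1, 21.3 within set 2 and 3.75 within set 3, so its size differed between sets. The smallest p within set 1 or set 2 alone would be 0.333, and set 3 has 1 library per arm.

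On average the lists were longer under aphidicolin, covering 5.09% of the span against 2.09%, so the regions were also set against the span. Untreated islands covered 1.93 and 2.35% of the span in set 1, 2.1 and 2.81% in set 2 and 1.27% in set 3. Under aphidicolin they covered 5.92 and 7.75%, 7.27 and 2.40%, and 2.13%, so that set 2 replicate 3 was shorter with aphidicolin than without. The ratio of the regions' share to the span's share was 0.904, 0.429, 0.532, 0.571 and 2.82 in the untreated libraries and 5.01, 4.83, 4.55, 5.08 and 3.45 in the aphidicolin libraries, in the same order. In 4 of 5 untreated libraries the regions thus held less γH2AX than the span, and in the untreated library of set 3 they held more. On the scale log2((share + 0.1)/(span share + 0.1)), in percentage points, the treatment difference was 2.45 (p = 0.0278, the same exact permutation test), and it was 2.92, 3.05 and 0.31 in the 3 sets. When every list was shortened to the same covered length, keeping islands in order of reads per kb, the regions' share was 4.15 to 6.71% with aphidicolin and 0.553 to 3.58% without. The difference was then 3.38 points with the same exact permutation p of 0.0278, in place of 22.1. With the weaker 50% of islands dropped from every list it was 12.9 points, and in the 1290 regions inside islands of 10 kb or less in all 8 macroH2A lists it was 7.89 points, where the log2 difference was 0.75 (exact permutation p of 0.0278, 0.0278 and 0.0556). The log2 difference over all regions had p = 0.0556 without the aphidicolin library of set 3 (exact permutation test).

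A share of islands tells the same comparison from the side of γH2AX. Of the aphidicolin γH2AX islands, 12.1 to 15.8% touched a short constitutive region, against 1.68 to 3.24% of untreated islands in sets 1 and 2 and 7.98% in set 3. The islands that touched one had median lengths of 4.2 to 7.2 kb with aphidicolin and 4.0 to 6.2 kb without. In set 1 replicate 2 with aphidicolin, the medians were 101 reads per kb for islands touching a region and 100 for the others.

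The second comparison set the short regions against the long runs of the same macroH2A lists. Long runs were inside γH2AX islands over 64.0 and 74.7% (set 1), 53.6 and 24.3% (set 2) and 22.7% (set 3) of their length with aphidicolin, and over 2.84, 1.54, 2.06, 2.35 and 7.16% without. The short regions held less in all 10 libraries, and short minus long was -12.6 points on average (two-sided exact sign-flip permutation test over 10 libraries, p = 0.00195, the smallest possible). Short minus long was -23.9 ± 11.3 points with aphidicolin and -1.38 ± 1.25 points without (SD, n = 5 each), and the difference of -22.5 points between treatments had p = 0.0278 by the exact permutation test within title sets. It had p = 0.0556 without untreated set 2 replicate 1 or replicate 3 (exact permutation test), and it was -36.8 points for the 1290 regions in islands of 10 kb or less. For those 1290, short minus long over libraries was -19.2 points (exact sign-flip permutation test, p = 0.0176). They held more than the long runs in untreated set 1 replicate 2 (2.30 against 1.54%) and untreated set 2 replicate 3 (2.73 against 2.35%), and less in the other libraries. As a ratio, long runs held 1.62 to 3.09 times the share of the short regions with aphidicolin and 1.47 to 2.00 times without, so that the ranges overlap on that scale.

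Short runs of the same length but near a long run, and runs of medium length, both held more γH2AX under aphidicolin than the regions, 33.3% ± 20.6 and 33.5% ± 20.8 (SD, n = 5). They were above the regions in 5 of 5 aphidicolin libraries, by 1.63 to 20.1 and by 1.69 to 19.9 points. Without aphidicolin the near runs were below the regions in 5 of 5 libraries, with differences of -1.13 to -0.488 points, and the medium runs were below them in 4 of 5. These are 2 of 7 contrasts between kinds of run that were chosen after the γH2AX values were known and tested for dependence on treatment with the same exact permutation test. Both had adjusted p = 0.0324 over the 7, from an unadjusted exact permutation p of 0.0278, the smallest possible. Without 1 library the unadjusted p reached 0.111. The 7 contrasts are in percentage points, and untreated shares were low. A constant ratio between kinds of run would therefore also appear as dependence on treatment, and ratios were not tested.

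**Figure D3:**
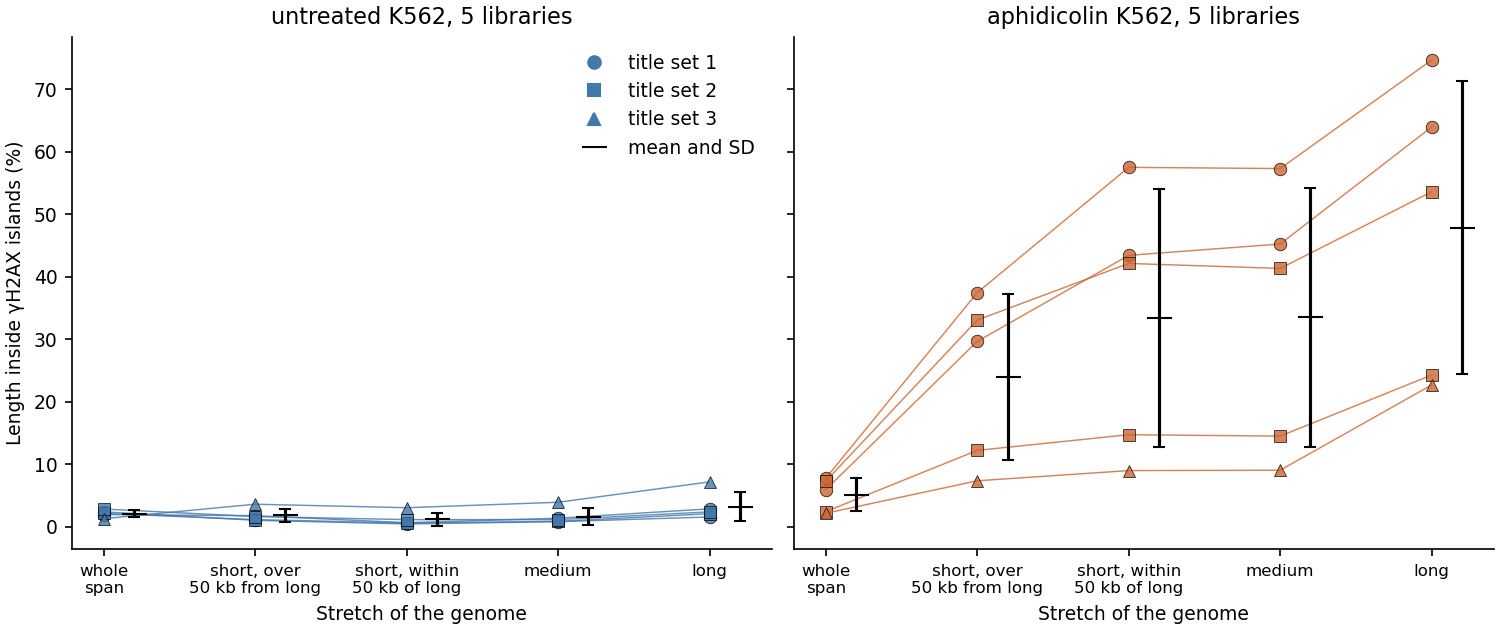
Percent of length inside γH2AX islands for the whole span and for each kind of shared run, in 5 untreated (left) and 5 aphidicolin (right) K562 libraries. Each line is 1 library, the marker gives its title set and the bars give mean and SD. The aphidicolin lines climb from the span (2.13 to 7.75%) through the short regions (7.33 to 37.5%) to the long runs (22.7 to 74.7%).

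Among the short regions, γH2AX under aphidicolin went with how broad and how crowded the macroH2A around them was. Regions inside an island of 20 kb or more in any list had 27.5% ± 15.3 of their length in γH2AX islands (SD, n = 5), those whose broadest island was over 10 and under 20 kb had 17.7% ± 9.97, and those in islands of 10 kb or less in all 8 lists had 10.3% ± 5.84. The step from the last class to the first was 4.73 to 27.1 points and upward in 5 of 5 aphidicolin libraries, and it was upward in 1 of 5 untreated ones (mean -0.783 points). Isolation gave a like order. Regions under 5 kb from another run had 27.6% ± 15.6, those at 5 to 20 kb 22.4% ± 11.9, those at 20 to 100 kb 15.1% ± 8.28, and those over 100 kb away 8.12% ± 4.57. The most crowded exceeded the most isolated in 5 of 5 aphidicolin libraries, by 4.92 to 32.1 points, and in 1 of 5 untreated ones.

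For both features the dependence on treatment, 17.96 and 19.96 points, had adjusted p = 0.0324 over the same 7 contrasts (exact permutation test), and leaving out 1 library gave unadjusted p of up to 0.0556. Broad islands and close neighbours occur together, and their separate parts were not tested. Even the most isolated regions were above the span share in all 5 aphidicolin libraries, with 3.16 to 12.6% against 2.13 to 7.75%. In untreated libraries they had 2.24% ± 0.55, where the span had 2.09% ± 0.57. They were above the span there in set 3 (2.06 against 1.27%) and in set 2 replicate 3 (3.16 against 2.81%), and below it in the other untreated libraries. In set 3 the excess was thus present without aphidicolin too, beside 3.16 against 2.13% with it.

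Region length mattered less. Regions of 4 to 5 kb had 27.4% ± 15.4 under aphidicolin and those of 1 to 2 kb had 21.8% ± 11.7, a difference of 1.02 to 12.0 points that was upward in 5 of 5 libraries. Its dependence on treatment was 5.57 points (adjusted p = 0.0324, exact permutation test), with unadjusted p of up to 0.0833 without 1 library. By reads per kb of the holding macroH2A islands, the lowest 25% of regions had 18.0% ± 9.88 and the highest 25% had 27.6% ± 16.8. That difference ranged from 0.09 to 26.1 points over the aphidicolin libraries, and its dependence on treatment (9.43 points, adjusted p = 0.0324, exact permutation test) gave unadjusted p of up to 0.194 when 1 library was left out. In set 2 with aphidicolin the lowest and highest groups had 30.8 and 30.9% in replicate 1 and 11.7 and 12.1% in replicate 3. In set 3 they had 5.34 and 9.44% with aphidicolin and 2.22 and 5.58% without, so that as a ratio the step there was larger without it.

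**Figure D4:**
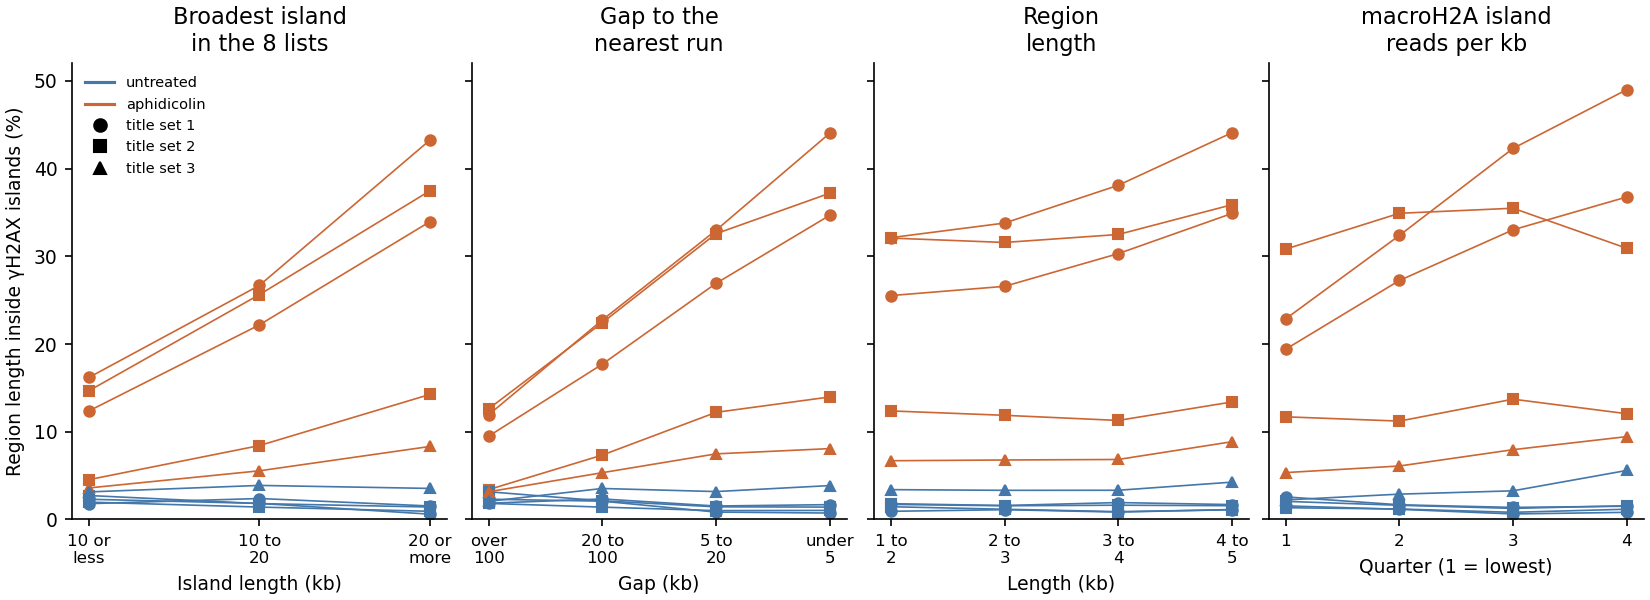
Percent of region length inside γH2AX islands for short constitutive regions grouped by the broadest macroH2A island that held them, by the gap to the nearest shared run, by their own length and by macroH2A reads per kb. Each line is 1 K562 library, coloured by treatment, with the marker for its title set. Aphidicolin lines rise steeply with island breadth (10.3 to 27.5% on average) and crowding (8.12 to 27.6%), and untreated lines lie below 6% throughout.

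Regions just inside and just outside the limits of the rule had similar shares. With aphidicolin, runs of 0.8 kb had 23.1% ± 12.4 and regions of 1 kb had 21.3% ± 12.0, while regions of 5 kb had 28.4% ± 16.4 and runs of 5.2 kb had 28.4% ± 16.2 (SD, n = 5). Regions 50 to 60 kb from a long run had 29.4% ± 18.4, and short runs 40 to 50 kb from one had 33.6% ± 19.4.

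Near the high-coordinate end of each chromosome the untreated background was higher. The low-coordinate ends were counted with the regions elsewhere. The 559 regions in the last 2 Mb had 10.2% ± 13.0 without aphidicolin, of which the set 3 library had 33.4% and the other 4 had 2.90 to 5.36%, against 1.47% ± 0.59 for regions elsewhere. End regions exceeded the others in 5 of 5 untreated libraries. With aphidicolin the values were 37.8% ± 16.4 and 23.4% ± 13.4, and end regions exceeded the others in 4 of 5 libraries. The dependence of this difference on treatment did not pass the test (5.65 points, adjusted p = 0.278, exact permutation test). Leaving out the untreated set 3 library moved it to 11.2 points.

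By chromosome, the aphidicolin mean over the regions was above the untreated mean on 23 of 23, and the libraries of both groups did not overlap on 16. The highest means were on chromosome 21 (37.1% ± 13.2), chromosome 3 (33.7% ± 15.8) and chromosome 7 (32.2% ± 10.1). The lowest were on X (3.10% ± 3.63, 66 regions), chromosome 14 (4.54% ± 4.72, 141 regions) and chromosome 22 (7.66% ± 3.96, 266 regions). On 22 chromosomes the regions held a larger share than the chromosome as a whole, and the exception was chromosome 22, whose whole length had 10.1%.

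The 5 Mb that held most regions illustrate the spread. At chr1:203000001-204000000, with 53 regions, γH2AX covered 57.3, 66.6, 74.0, 31.4 and 24.7% of their length in the aphidicolin libraries of sets 1, 2 and 3, and 0 to 5.93% in the untreated ones. At chr3:46000001-47000000, with 49, the aphidicolin values were 19.8 to 53.0% and the untreated ones 0 to 3.14%. At chr19:51000001-52000000, with 48, they were 3.14 to 16.9% and 0. At chr9:138000001-139000000, with 46, and chr2:241000001-242000000, with 45, the set 3 aphidicolin library had 0 and the other 4 reached 36.0 and 56.2%. The treatment groups were apart at the first 3 places, touched at 0 on chromosome 9 and overlapped on chromosome 2, where 1 untreated library had 1.98%. High numbers of regions in 1 Mb therefore did not go with one level of γH2AX.

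Counted region by region, 13217 (91.4%) were touched by none of the 5 untreated γH2AX lists and 5132 (35.5%) by none of the 5 aphidicolin lists. With aphidicolin, 3173 were in 1 list, 2921 in 2, 1843 in 3, 1078 in 4 and 309 in all 5. Taking all 10 lists, 8348 regions (57.7%) were touched only with aphidicolin, 263 (1.82%) only without, 976 (6.75%) in both and 4869 (33.7%) in none. Over all 22069 runs of at least 1 kb, the shares were 64.6, 1.40, 8.04 and 26.0% in the same order, and 15.7% of short runs near a long run were in no list. Regions in 4 or 5 aphidicolin lists and in no untreated one numbered 1091 (7.55%). The same held for 11.1% of all shared runs of at least 1 kb, with 18.2% of medium and 35.3% of long runs, which are longer. The reverse, 4 or 5 untreated lists and no aphidicolin one, held for 6 regions, beside 0.0544% of all such runs. All 5 aphidicolin and no untreated list touched 180 regions, beside 2.08% of all runs.

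Overlaps between the lists of 1 treatment are given as shares of each list. Of the regions touched in set 1 replicate 1 with aphidicolin, 80.3% were also touched in replicate 2, which is 63.0% of those touched there. In set 2, replicate 1 held 84.5% of the regions of replicate 3, and 36.8% in the other direction. Between set 1 replicate 2 and set 2 replicate 1 the overlap was 51.5 and 59.6%. The set 3 aphidicolin library touched 1299 regions, of which 70.5% were in set 1 replicate 2. Untreated lists touched 184 to 658 regions each. The untreated set 1 replicate 1 had 23.5% of its regions in common with set 1 replicate 2, 28.8% with set 2 replicate 1 and 36.7% with set 2 replicate 3. Those lists touched 184, 235 and 331 regions, and as shares of them the overlaps were 40.8, 39.1 and 35.3%. The order thus depended on the direction, and the lists differed in length.

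**Figure D5:**
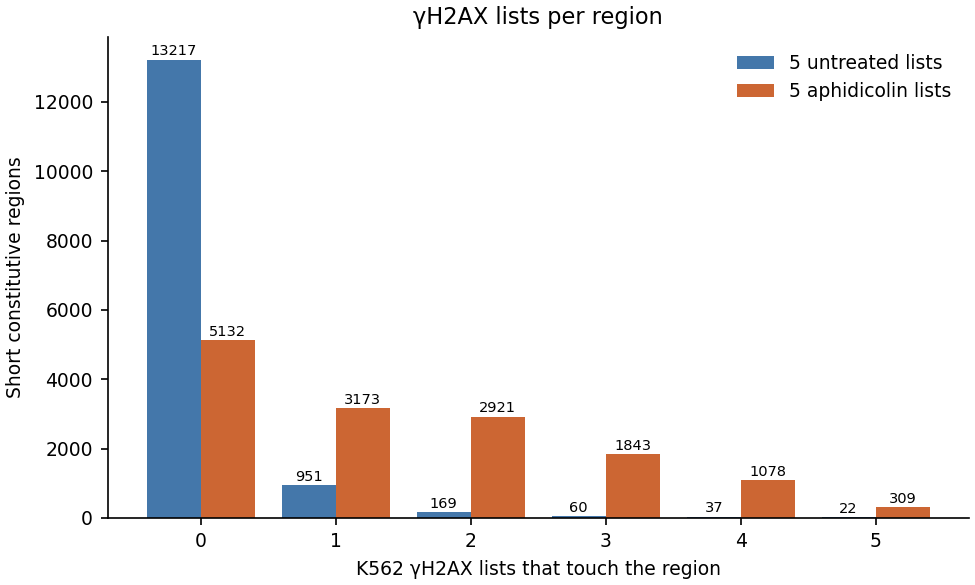
Number of short constitutive regions touched by 0 to 5 of the 5 untreated and of the 5 aphidicolin K562 γH2AX lists. Most regions (13217) are in no untreated list, while with aphidicolin 5132 are in none and 309 in all 5.

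A test region by region used limma on the percent of each run inside γH2AX islands, with title set as a term and Benjamini-Hochberg adjustment over the 12035 runs of at least 1 kb that were covered in 2 or more libraries. Of the 14456 regions, 6449 entered the test, 1035 passed an adjusted p of 0.05 with higher γH2AX under aphidicolin, and 6 with lower. The filter counted libraries of both treatments, and 91.4% of the 14456 regions were in no untreated list. Such regions could enter only through aphidicolin libraries and could only be called higher. The excess of higher over lower calls is therefore no support apart from the coverage itself. Over all tested runs 18.0% were higher and 0.108% lower, so the regions' 16.0 and 0.0930% were near that background. The count depends on single libraries. It was 456 without untreated set 1 replicate 1, 164 without untreated set 1 replicate 2, 169 without untreated set 2 replicate 1, 543 without untreated set 2 replicate 3 and 2059 without aphidicolin set 2 replicate 3. In that order the shares were 7.13, 2.55, 2.63, 8.51 and 34.3% of tested regions, beside 6.82, 3.17, 3.23, 8.32 and 39% of all tested runs. The count was 39 on lists of equal covered length, 441 on the upper 50% of islands, 165 with no filter and 2593 by edgeR. These were 2.99, 12.5, 1.14 and 40.2% of tested regions, beside 6.24, 13.8, 1.8 and 42.9% of all tested runs. At equal covered length the regions' share was thus below that of all tested runs. Over all 14456 regions, tested or not, the median difference was 18.3 points and 9098 (62.9%) had a positive one. The same figures over all 22069 runs of at least 1 kb were 20 points and 71.3%.

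Among the regions that passed, 222 that rose were separated in every title set, which is 1.54% of all 14456 regions, beside 2.73% of all runs of at least 1 kb. Of these 222, 23 regions (0.159%, beside 0.177% of all such runs) were inside γH2AX islands over 0% of their length in all 5 untreated libraries and 100% in all 5 aphidicolin ones. The first in chromosome order was chr1:43688401-43691600, a 3.2 kb region 1.0 kb from its neighbour, in macroH2A islands of 6.0 to 54.0 kb. The next were chr1:54584001-54585400 and chr1:201011801-201015800, a 4.0 kb region in islands of up to 108 kb. A pair of them, chr1:227630601-227634400 and chr1:227646201-227648200, lay in the same neighbourhood. Off chromosome 1, the first were chr2:3701801-3703600, whose broadest macroH2A island was 7.4 kb, chr3:13257801-13260200 and chr5:1669201-1671800. Each differed by 100 ± 9.03 points (SE, limma, adjusted p = 0.000319), with all 10 libraries in that direction. The values did not vary within a treatment, and limma gave the same SE at chr7:22601-25000, where all 10 libraries had 100%. This SE thus comes from limma's pooling over runs and not from a spread at these regions. They were named for the largest differences, so the p-value is no separate support.

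The 6 regions that fell by limma are few enough to name, and they rest on single libraries. None was called without untreated set 1 replicate 2, without untreated set 2 replicate 1 or with no filter, and 3 were without untreated set 1 replicate 1 or with the weaker 50% of islands dropped. At an unadjusted p of 0.05, 24 regions were lower by limma, and edgeR called 21. At chr10:47558801-47560400, γH2AX covered 100% in the 4 untreated libraries of sets 1 and 2 and 0% in the untreated library of set 3 and in all 5 aphidicolin libraries (-80.0 ± 16.0 points, SE, limma, adjusted p = 0.0132). The regions at chr2:91641801-91646600, chr1:111372401-111374200 and chr5:12056601-12060200 had the same layout, at 0% in set 3, with 91.7 to 100, 88.9 to 100 and 72.2 to 100% in the other untreated libraries. Set 3 thus did not share these changes. At chr6:62201-64800, the untreated values were 53.8 to 100% and the aphidicolin values 53.8, 0, 0, 0 and 69.2%, and this was the only one of the 6 in which the treatments were apart in every set. At chr22:51241601-51244600 the set 3 library was at 100% in both treatments. The regions on chromosomes 6 and 22 lay at chromosome ends, that on chromosome 22 where the span ended at 51.24 Mb.

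Some regions were covered whatever the treatment. Of all regions, 7 were touched by all 10 K562 lists and 4 lay fully inside γH2AX islands in all 10. One of the 4 was at chr7:22601-25000, and the others were neighbours at chr16:90183201-90184800, chr16:90185801-90187600 and chr16:90188801-90191000. Next was chr1:233401-236600, fully covered in 9 lists and missing from the aphidicolin list of set 2 replicate 3. The named ones all lay near a chromosome end by their coordinates, those on chromosome 16 where its span ended at 90.29 Mb. Input libraries were not analysed, and whether the coverage there is particular to γH2AX was not tested.

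Windows of 100 kb gave the surroundings. Of 30367 windows, 5475 held a short region. Mean γH2AX coverage of a window went from 2.20 to 2.96% with aphidicolin where it held none, from 1.82 to 13.2% where it held 1 to 4, and from 1.16 to 23.5% where it held 5 or more. By limma (title set as a term, adjusted over 13456 tested windows), 298 windows with regions were higher and 6 lower. These were 6.67% and 0.134% of the 4471 tested windows with regions, beside 3.80% and 1.34% of all tested windows. By number of regions held, 2.37% of tested windows were higher with none, 5.50% with 1 to 4 and 11.5% with 5 or more. The filter counted libraries of both treatments here too, so windows could enter through aphidicolin libraries alone and then only be called higher. These shares are therefore no support apart from the coverage itself. With the replicate block, 0.0895% of tested windows with regions were higher, beside 0.134% of all tested windows. The count of 298 lay between 17 and 1361 when 1 library was left out, and each of the 10 omissions moved it over 1.5 times, so it describes these 10 libraries only.

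In line 2A3, which is not described in the labels, the γH2AX lists of set 3 covered 10.2% of the regions' length without aphidicolin and 17.9% with it, where the islands covered 2.999 and 4.45% of the span. The K562 libraries of the same set had 3.58 and 7.33%, with 1.27 and 2.13% of the span. Relative to the span the values were 3.41 and 4.03 in 2A3 and 2.82 and 3.45 in K562. With 1 library each there is no replicate check. In the 2A3 lists the share was 5.22% in regions over 100 kb away from another run and 20.6% in those under 5 kb away with aphidicolin, and 2.84 and 12.0% without it. They covered 34.4% of the long runs without aphidicolin and 48.8% with it.

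The hairpin lists gave macroH2A1.2 values that did not enter the choice of the regions. After the control hairpin sh-RFP, islands covered 96.1% of the regions' length, against 13.8% of the span. They touched 14033 regions (97.1%) and covered 13345 fully (92.3%). After sh-mH1.2, islands covered 1.24% of the regions' length and 0.781% of the span, touching 259 regions (1.79%), 73 of them fully. The sh-RFP and sh-mH1.2 lists covered 99.6 and 18.3% of the long runs and 99.0 and 2.42% of the medium runs. Islands held 75168077 reads in the sh-RFP list and 2022630 in the sh-mH1.2 list, and each condition is 1 library. The deposited name of the sh-RFP list carries the word merged and that of the sh-mH1.2 list does not, so the former may combine runs. Loss of macroH2A1.2 and a smaller, shallower or weaker library thus cannot be told apart here. At equal covered length, keeping islands in order of reads per kb, the sh-RFP list covered 2.60% of the regions' length and the sh-mH1.2 list 1.24%.

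The 423 regions outside sh-RFP islands were somewhat shorter (median 2.0 kb against 2.4 kb). They were spread over chromosomes, with the largest shares on chromosome 14 (9.93% of its regions) and chromosome 4 (7.50%). Their γH2AX share in K562 with aphidicolin was 14.2% ± 9.93, against 24.2% ± 13.5 for those inside (SD, n = 5), and without it 1.62% ± 0.62 against 1.82% ± 1.05. In line 2A3 the order was the opposite. Regions outside sh-RFP islands had 21.0% against 17.8% with aphidicolin and 13.0% against 10.2% without it, from 1 library each.

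Of the 259 regions touched after sh-mH1.2, 258 were also touched after sh-RFP. Chromosome 1 held 63 of them, chromosome 6 held 45 (5.18% of its regions) and chromosome 3 held 26. The islands there were 3.4 kb long at the median, as in the whole list. By reads per kb, the strongest was at chr10:135499201-135503000, with 460, the next at chr12:132060601-132063200, with 270, and then came chr18:12134001-12136000, with 85.0, and chr7:22601-25000, with 84.0. The first 2 were also among the 5 regions with the highest macroH2A reads per kb, and the last is one of the 4 covered by γH2AX in all 10 lists. At chr21:9882601-9885000 the sh-mH1.2 island was 61.6 kb long and γH2AX covered the region fully in 9 of 10 lists.

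The regions touched after sh-mH1.2 had more γH2AX without aphidicolin than the other regions, 9.38% ± 1.76 against 1.66% ± 1.04 (SD, n = 5), and the libraries of both classes did not overlap (6.78 to 11.2% and 0.892 to 3.46%). With aphidicolin they had 25.3% ± 10.6 against 23.9% ± 13.4. In line 2A3 they did not have more, with 10.1% against 10.2% without aphidicolin and 15.6% against 18.0% with it. This split was made after the values were seen and has no test.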

How the data were processed

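The authors deposited 22 island lists, each line giving a chromosome, start, end and the count of reads in the island. Per the submitters' processing notes, reads were aligned to hg19 with Bowtie2 2.1.0 and islands called with SICER 1.1, and per the deposited names the window was 200 bp, the gap 600 bp and the false discovery rate 0.01. The counts are not normalized, islands were called per library, and 14 input libraries were not analysed here.

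All island edges lay on the 200-bp grid (0 off it), so overlaps were computed on that grid. A region counted as touched when at least 1 bin of it lay in an island. One blank line was left out, and other chromosomes were not used.

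Treatment was tested with exact permutation tests within title sets, and with limma 3.58.1 (R 4.3.3) on percent covered. The limma code was run on simulated normal values with a common spread and no filter. Covered percentages are bounded and were filtered, so that run does not check the calls made here. edgeR 4.0.16, run on island reads shared out by overlapped length, was an alternative. No pairwise list comparison found duplicated libraries: at most 13 islands of a pair matched in edges and reads.

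Regions were named by position: the 5 fullest 1-Mb bins, the 5 longest, the 5 most isolated, the 5 with most macroH2A reads per kb, up to 10 changes per direction separated in every title set, up to 10 in sh-mH1.2 islands by reads per kb, and the 5 in most γH2AX lists. The regions, the rules and the tests were chosen with earlier results of these data known. The 7 contrasts between kinds of run, and the named falls that overlap in a title set, were added after the values were seen. The other alternatives were settings of length, distance, calling strength, covered length, filter, scale and left-out libraries.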

Additional observations from a re-analysis of the deposited data

Results flagged for a closer look

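The untreated K562 γH2AX library of set 3 stood far from the other 4 untreated libraries in 5 measures at these regions. Its islands covered 3.58% of the regions' length, where the others had 1.01 to 1.74%. Relative to the span its value was 2.82, against 0.429 to 0.904. Over long runs it had 7.16%, against 1.54 to 2.84%, and short minus long was -3.57 points, against -1.10 to -0.53. Of its covered length, 3.51% lay in the regions, against 0.534 to 1.13%. These came from 16 searches over groups and measures, of which chance flags about 1 in 20, and all 5 describe the same library, so they are not independent. It also had the smallest covered length of the 10 lists. When the other untreated lists were cut to that covered length, islands covered 0.553 to 1.24% of the regions' length in them, which was 0.435 to 0.976 relative to the span, and the set 3 library stayed at 3.58% and 2.82.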

How the results depend on the processing

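The 3 treatment differences and the short-minus-long difference kept their direction under every alternative run. With the replicate block (pairs of the same set and number, sign-flip over 5 pairs), the values were unchanged at 22.1 points, 2.45 on the log2 scale and -22.5 points, with p = 0.0625 (exact permutation), the smallest that 5 pairs allow. Deviations of same-numbered untreated and aphidicolin samples from their group means correlated at 0.012 (set 1) and 0.0136 (set 2) over runs. Over windows they correlated at -0.0411 and 0.0457. Of all runs of at least 1 kb, 64.6% were touched only with aphidicolin and 26.0% in no list. Untreated deviations were thus 0 at most runs, and the check cannot decide whether the numbers paired the samples. Leaving out 1 library gave 18.7 to 26.3 points, 2.24 to 2.88 and -25.5 to -19.2 points (exact permutation p of 0.0278 to 0.0556), and -14.0 to -9.9 points for short minus long over libraries (p = 0.00391). In the 1290 regions inside islands of 10 kb or less in all 8 lists, an alternative added after seeing the data, the log2 difference was 0.75 (exact permutation p = 0.0556).

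Leaving out 1 macroH2A list gave 14063 to 15746 regions, and dropping the 50% of islands with the fewest reads per kb gave 4644. For regions of 1 to 3 kb, sh-RFP islands covered 95.3%, and γH2AX islands of set 3 covered 16.0 and 9.21% in 2A3 with and without aphidicolin and 6.84% in K562 with it. With the weaker 50% of hairpin or γH2AX islands dropped, the sh-RFP and sh-mH1.2 lists covered 87.9 and 0.465%, the 2A3 lists 10.6 and 6.20%, and the K562 lists of set 3 4.17 and 2.13%. At equal covered length sh-RFP islands covered 2.60%.

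Counts of calls moved most, and the cause was not tested. Regions higher by limma were 165 with no filter, 441 with the weaker 50% dropped, 39 at equal covered length, 688 with the replicate block and 2593 by edgeR, and 164 to 2059 with 1 library left out. The first 5 were 1.14, 12.5, 2.99, 10.7 and 40.2% of tested regions, beside 1.8, 13.8, 6.24, 10.3 and 42.9% of all tested runs. Regions lower were 0, 3, 7, 4 and 21 under the same 5 settings, and 0 to 8 with 1 library left out. Windows with regions that were higher numbered 2364 on the arcsine scale, 10 with no filter, 26 with the weaker 50% dropped, 19 at equal covered length, 4 with the replicate block, and 17 to 1361 with 1 library left out. The first 5 were 52.9, 0.183, 0.731, 0.882 and 0.0895% of tested windows with regions, beside 30.4, 0.0856, 0.695, 0.775 and 0.134% of all tested windows. Windows lower were 67, 0, 0, 1 and 0 under those settings, and 0 to 57 with 1 library left out. Before adjustment, 2620 regions were higher and 24 lower at p under 0.05. Depth limits these results through the lists: libraries with short lists can show few regions as covered, and a region outside an island may still carry signal below the caller's threshold.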
